A study of Homo sapiens with 6 samples.

Results

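A set of 10 NF-κB pathway genes was examined in irradiated HK-2 cells: the subunits NFKB1, NFKB2 and RELB, the genes NFKBIA, NFKBIE and NFKBIZ of the IκB family, and the feedback targets TNFAIP3, TRAF1, BIRC3 and TNFAIP2. They are 10 of the 38648 genes and gene copies listed for each library, and they were chosen by gene name because TNFAIP3 and TRAF1 were lower in the cells that overexpressed PRDM16. The comparison between the groups is therefore given for the 10 genes as a description, with errors but without p-values, and counts of them past a threshold are read as no more than that. HK-2 cells derive from human proximal tubule epithelium and were immortalized. Bulk RNA-seq was available for 6 libraries. In 3 of them (IR+NC-LV) the cells carried a negative control lentivirus, and in the other 3 (IR+PR-LV) a lentivirus that overexpresses PRDM16. All 6 came from cells that had received a single 8 Gy dose of X-rays and were collected at day 7, so that no unirradiated cells enter the comparison. The cells were selected with puromycin after infection, and each group is a selected population of 1 cell line. The labels do not say whether the 3 libraries of a group came from separate cultures, so the spread between them, which is all that the p-values measure, may be technical.

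NF-κB is a family of dimeric transcription factors that carry inflammatory and survival signals from cytokine receptors, pattern receptors and DNA damage to the nucleus. In resting cells the dimers are held in the cytoplasm by IκB proteins. In the canonical pathway, the IKK kinase complex marks IκB for degradation and frees dimers of RELA and the NFKB1 product. In the noncanonical pathway, the kinase MAP3K14 triggers processing of the NFKB2 precursor, which then acts with RELB. Several of the genes that NF-κB switches on encode its own subunits and brakes, so that their RNA levels are widely read as an output of the pathway. In senescent cells NF-κB is known as a driver of the secretory phenotype, and in tubular epithelium it is known for its part in injury responses.

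The promoters of the 10 genes were searched for the κB motif, the DNA element to which NF-κB dimers bind. The RefSeq promoter table (GRCh38.p14, 250 bases before to 50 bases after each start) matched 8 of the 10 genes, with NFKBIE and RELB without an entry. The motif was searched on both strands as GGGA, any base, TT, any base and CC, and a looser form, the κB consensus, was searched as well. The forms overlap, but neither contains the other. The first form was present in a promoter of 5 of the 8 genes (62.5%), namely TNFAIP3, NFKBIA, NFKBIZ, NFKB1 and NFKB2, against 1.71% of the 27305 genes in the table. The looser form added BIRC3, giving 6 of the 8 genes (75.0%) against 7.09% of all genes. A gene counted if any of its promoters matched. By promoter, the first form was in 6 of 14, against 1.40% of 35116. The 10 genes were listed for being subunits or direct feedback genes of NF-κB. A share above that of all genes was thus built into the list and is not a result. The promoters of TRAF1 (3 entries) and TNFAIP2 (1 entry) held neither form in these windows of 300 bases. Several annotated starts lie inside the gene as the files list it, among them those of TNFAIP2 and of the stretches given here for TNFAIP3, NFKB2, NFKB1 and BIRC3. The stretches below are shown because they hold these matches, in capitals, in genes whose groups were separated (TNFAIP3, NFKB1, NFKB2) and in genes whose groups overlapped (NFKBIA, NFKBIZ, BIRC3). They are written along the strand of the gene, and the stretch of TNFAIP3 holds 2 matches and that of NFKB2 holds 3, of which the first and the next overlap.
TNFAIP3, chr6:137867172-137867233, plus strand: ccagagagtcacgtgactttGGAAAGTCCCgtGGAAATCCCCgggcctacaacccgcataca
NFKB2, chr10:102394451-102394529, plus strand: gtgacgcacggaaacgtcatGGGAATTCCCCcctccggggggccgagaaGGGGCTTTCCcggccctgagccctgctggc
NFKB1, chr4:102501290-102501339, plus strand: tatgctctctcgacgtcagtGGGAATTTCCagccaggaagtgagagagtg
NFKBIA, chr14:35404801-35404850, minus strand: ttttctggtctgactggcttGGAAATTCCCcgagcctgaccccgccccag
NFKBIZ, chr3:101827747-101827796, plus strand: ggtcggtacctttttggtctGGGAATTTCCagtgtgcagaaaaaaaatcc
BIRC3, chr11:102317265-102317314, plus strand: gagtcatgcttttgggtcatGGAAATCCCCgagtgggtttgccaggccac

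The matches began 67 and 55 bases before the start in TNFAIP3, from 107 to 78 bases in NFKB2, 49 bases in NFKB1, 81 bases in NFKBIA and 223 bases in NFKBIZ. In BIRC3 the match shown began 199 bases before the start, and a second match to the looser form began at 135 bases. Matches not shown began 176 and 21 bases before a further start of NFKB2, the latter to the first form, and 239 bases before a further start of NFKBIZ. A match is a run of letters and does not show that a factor was bound in these cells.

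Libraries held 13407074 to 28540041 counts, and all 10 genes passed the filter on low counts. PRDM16 had 2, 0 and 1 counts with NC-LV, and 14, 10 and 8 counts with PR-LV, in the direction of the labels. These were few reads in every library, so they give the direction but no close measure of the overexpression. The epithelial keratins and PAX8, which marks renal epithelium, were measured in every library, with epithelial markers summing to 1100 to 1206 CPM (reads of a gene scaled to a common library size) with NC-LV and 1138 to 1432 CPM with PR-LV. Of 11 listed proximal tubule markers, PAX8 among them, 8 could be tested. The 11 summed to 552 to 556 CPM with NC-LV and 560 to 598 CPM with PR-LV. LRP2, SLC22A6 and ANPEP, which mark the differentiated proximal tubule, were too low to test. The endothelial markers summed to at most 1.31 CPM. The 6 immune cell markers summed to 91.5 to 110 CPM with NC-LV and 84.4 to 93.3 CPM with PR-LV. Only CD68 and CD14 of these could be tested, with edgeR adjusted p-values of 0.405 and 0.869. The 4 fibroblast markers, of which 2 could be tested, summed to 91.8 to 107 CPM with NC-LV and 79.4 to 119 CPM with PR-LV. Of the 15340 genes tested, 10 (0.0652%) passed an adjusted p-value of 0.05, and 7 of them (0.0456% of the genes tested) were lower in IR+PR-LV. TNFAIP3 and TRAF1 are 2 of these 7 and were picked for it, so that their passing is not a result, and the other 8 NF-κB genes did not pass.

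Levels were compared between genes on the TPM scale, which divides by gene length. In IR+NC-LV, NFKBIZ had the highest level (382 ± 17.8 TPM, SD, n = 3) and NFKBIA the next (317 ± 14.5 TPM), above 96.7% of the genes tested. TNFAIP2 (129 ± 7.05 TPM) and BIRC3 (105 ± 2.96 TPM) followed. TNFAIP3 (74.1 ± 12.0 TPM), NFKB1 (72.5 ± 10.7 TPM) and NFKB2 (62.8 ± 10.5 TPM) overlapped in their ranges, so that their order was not resolved. RELB (36.6 ± 7.10 TPM), NFKBIE (27.6 ± 2.62 TPM) and TRAF1 (19.7 ± 2.52 TPM) were lowest, and TRAF1 stood above 53.7% of the genes tested. The highest level was 19.4 times the lowest. RELA, the main activating subunit, had 63.5 ± 2.54 TPM and REL 12.98 ± 2.72 TPM in the same libraries.

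**Figure D1:**
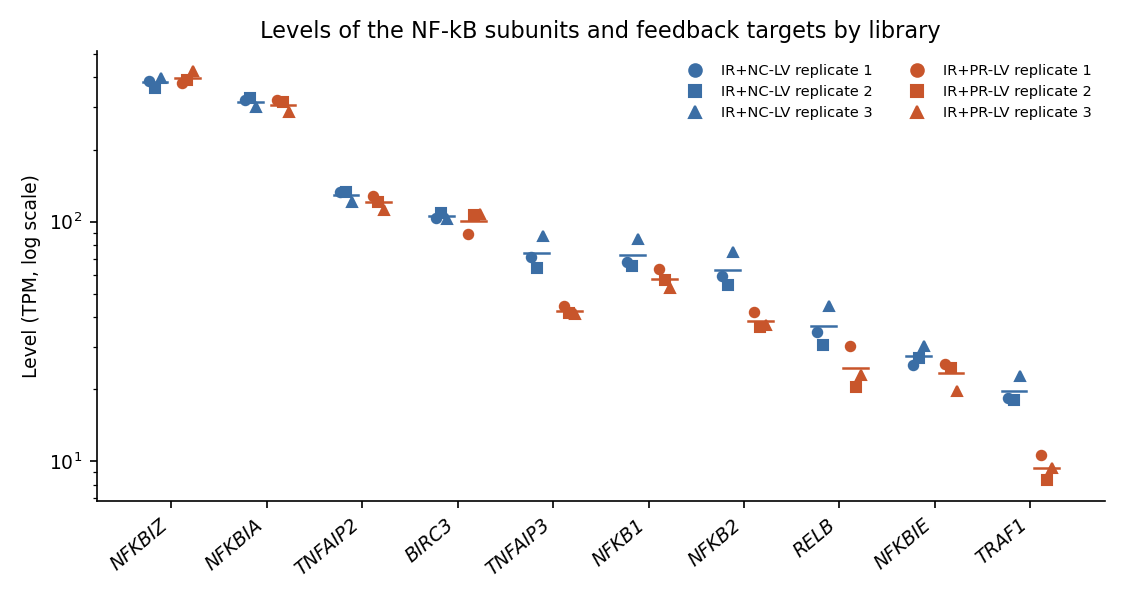
TPM (log axis) of the 10 genes in each library, ordered by the IR+NC-LV mean; symbols are libraries and short lines are group means. NFKBIZ and NFKBIA overlapped between the groups, while the IR+PR-LV symbols of TNFAIP3 and TRAF1 lay below all IR+NC-LV symbols.

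In IR+PR-LV the 4 genes with the highest levels kept their ranks, and NFKB1 (57.8 ± 5.31 TPM) now stood above TNFAIP3 (42.3 ± 1.84 TPM) without overlap. RELB (24.6 ± 5.17 TPM) and NFKBIE (23.3 ± 3.16 TPM) overlapped. TRAF1, at 9.42 ± 1.13 TPM, stood above 40.03% of the genes tested.

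The 10 genes fell into those that were lower in every IR+PR-LV library and those whose libraries overlapped. TRAF1, TNFAIP3, NFKB2, RELB and NFKB1 were below the IR+NC-LV range in all 3 IR+PR-LV libraries, at 49.3%, 58.9%, 63.2%, 69.3% and 82.3% of the IR+NC-LV mean. Such a separation towards lower values was found for 9.54% of all genes tested, and a log2 fold change under 0 for 48.9%. Since the genes were chosen from this contrast, nothing is read from the count of 5, or from the 9 of 10 with a lower mean. The libraries of NFKBIE, TNFAIP2, BIRC3, NFKBIA and NFKBIZ overlapped between the groups. The median log2 fold change was -0.24 over the 10 genes and -0.13 over the 8 without TNFAIP3 and TRAF1, beside 0.0044 over all genes tested. In bulk RNA, fewer cells that express a gene cannot be told apart from less RNA per cell.

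**Figure D2:**
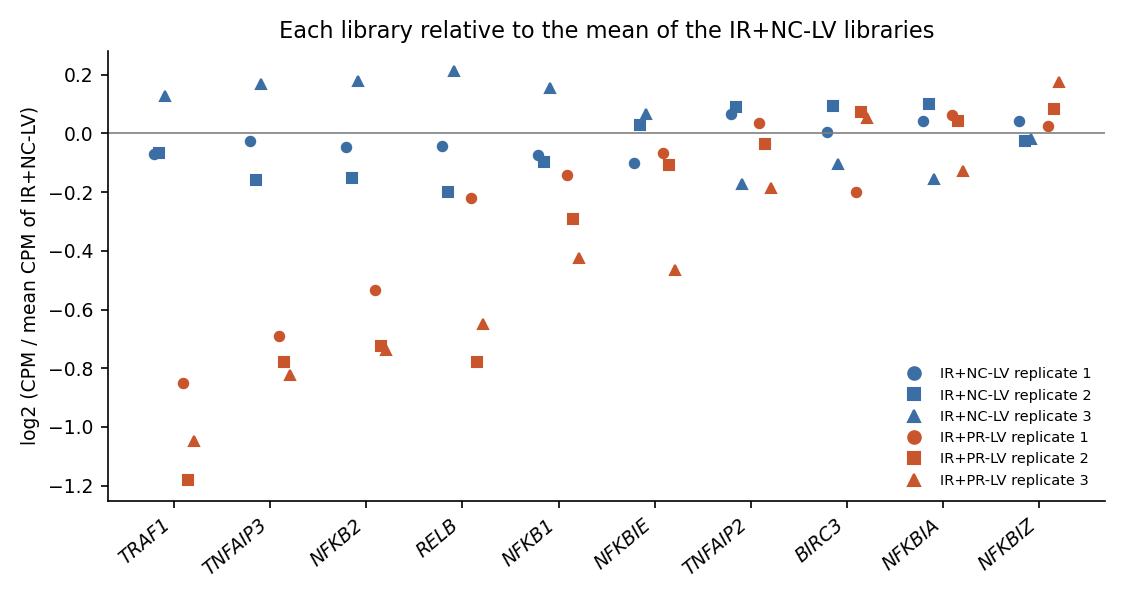
Log2 of the CPM of each library over the mean CPM of IR+NC-LV for the 10 genes, ordered by fold change. For 5 genes, from TRAF1 to NFKB1, no IR+PR-LV symbol reached the IR+NC-LV symbols, and for the other 5 they overlapped. Such a separation towards lower values was found for 9.54% of all genes tested. The genes were chosen from this contrast, so nothing is read from the count.

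The 3 subunits had lower means in IR+PR-LV, and differences between them in the size of the change were not tested. NFKB2, the precursor of the noncanonical pathway (chromosome 10, 102394110 to 102402529, plus strand), had 84.8, 78.9 and 99.2 CPM with NC-LV, against 60.6, 53.1 and 52.6 CPM with PR-LV. The highest IR+PR-LV library was thus below the lowest IR+NC-LV library. On the log2 scale the difference was -0.66 (standard error 0.10).

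RELB, the partner of the NFKB2 product (chromosome 19, 45001449 to 45038194, plus strand), had 24.3, 21.8 and 29.0 CPM with NC-LV. It had 21.5, 14.6 and 15.98 CPM with PR-LV, giving a log2 difference of -0.53 (standard error 0.16). IR+PR-LV replicate 1 lay only just under the IR+NC-LV libraries, and RELB had the widest spread of the 10 genes in IR+PR-LV, with a coefficient of variation of 21.1%.

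NFKB1, the precursor of the canonical partner subunit (chromosome 4, 102501266 to 102617302, plus strand), had 92.8, 91.1 and 109 CPM with NC-LV. It had 88.3, 79.7 and 72.7 CPM with PR-LV, giving a log2 difference of -0.28 (standard error 0.09). The groups were separated, but the gap between them was smaller than the spread within either group. RELA, which is not one of the 10 genes, had 48.9 ± 0.401 CPM and 49.7 ± 2.14 CPM (SD, n = 3 each), a log2 difference of 0.02 (95% interval -0.13 to 0.17).

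Ratios within a library do not depend on its depth or scaling factor. The TPM ratio of NFKB2 to NFKB1 was 0.833 to 0.880 with NC-LV, against 0.641 to 0.696 in IR+PR-LV, without overlap. The ratio of RELB to RELA was 0.574 ± 0.0877 with NC-LV, against 0.389 ± 0.0644 in IR+PR-LV (SD, n = 3 each), and that of REL to RELA 0.204 ± 0.0343 and 0.147 ± 0.0251. The groups were separated in these ratios too. These ratios are made from the same libraries and are not independent of the fold changes above.

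**Figure D3:**
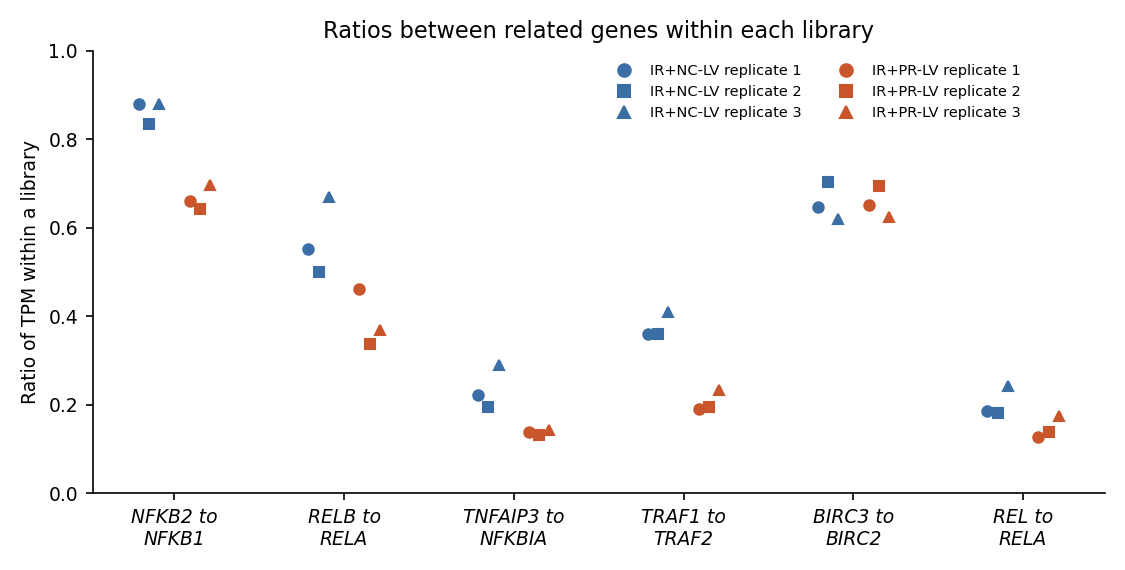
TPM ratios between related genes within each library, on a linear axis from 0; each symbol is a library. The ratio of NFKB2 to NFKB1 was 0.641 to 0.696 in IR+PR-LV and 0.833 to 0.880 in IR+NC-LV, whereas the ratio of BIRC3 to BIRC2 overlapped.

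The libraries of all 3 genes of the IκB family overlapped between the groups. NFKBIA, which encodes IκBα, the inhibitor resynthesized after each round of canonical activation (chromosome 14, 35401513 to 35404749, minus strand), had 154, 160.3 and 134 CPM with NC-LV, against 156, 154 and 137 CPM with PR-LV. The groups overlapped, and the log2 fold change was -0.0065 with a 95% interval of -0.19 to 0.18. The sign of NFKBIA changed without the filter on low counts (0.0029). It also changed when replicate 1 or 2 of IR+NC-LV was left out, or replicate 3 of IR+PR-LV, within a range of -0.07 to 0.05.

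NFKBIE, which encodes IκBε (chromosome 6, 44258166 to 44265551, minus strand), had 18.2, 19.9 and 20.4 CPM with NC-LV, against 18.6, 18.1 and 14.1 CPM with PR-LV. Its log2 fold change was -0.20 (95% interval -0.47 to 0.07). IR+PR-LV replicate 3 was the lowest library, and without it the value was -0.09. NFKBIZ, which encodes the nuclear protein IκBζ, a coactivator of secondary response genes (chromosome 3, 101827990 to 101861022, plus strand), had 498, 476 and 478 CPM with NC-LV, against 492, 512 and 546 CPM with PR-LV. It alone of the 10 genes had a higher mean in IR+PR-LV, by 0.10 on the log2 scale (95% interval -0.04 to 0.23), and the groups overlapped. NFKBIZ shares 4.65% of its exon bases with NXPE3 on the same strand.

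TNFAIP3 and TRAF1 were the genes for which the group was chosen. TNFAIP3 encodes A20, a ubiquitin-editing enzyme that switches off signalling to IKK (chromosome 6, 137866317 to 137883312, plus strand). It had 189, 172 and 216 CPM with NC-LV, against 119, 112 and 109 CPM with PR-LV, giving a log2 difference of -0.76 (standard error 0.09). The 3 IR+PR-LV libraries were close together, with a coefficient of variation of 4.73%, against 11.5% in IR+NC-LV. Of the exon bases of TNFAIP3, 7.16% overlap WAKMAR2 on the opposite strand, which had 7 to 15 counts per library, where TNFAIP3 had at least 2000. Relative to NFKBIA, the TPM of TNFAIP3 was 0.235 ± 0.0496 with NC-LV, against 0.138 ± 0.00613 in IR+PR-LV (SD, n = 3 each).

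TRAF1 encodes an adaptor of TNF receptors that lacks the RING domain of other TRAF proteins (chromosome 9, 120902393 to 120929171, minus strand). It had 25.3, 25.4 and 29.1 CPM with NC-LV, against 14.8, 11.7 and 12.9 CPM with PR-LV, the largest difference of the 10 genes (log2 fold change -1.02, standard error 0.11). The TPM ratio of TRAF1 to TRAF2, its partner in the receptor complex, was 0.376 ± 0.0292 with NC-LV, against 0.206 ± 0.0241 in IR+PR-LV (SD, n = 3 each). The log2 fold changes of TRAF2, TRAF3, TRAF5 and TRAF6 were -0.14, -0.07, -0.01 and -0.17, and none of these 4 passed the threshold (edgeR adjusted p-values from 0.531 to 0.959).

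BIRC3 encodes cIAP2, a ubiquitin ligase of the TNF receptor complex (chromosome 11, 102317373 to 102339403, plus strand). It had 223, 237 and 207 CPM with NC-LV, against 193, 234 and 231 CPM with PR-LV. The groups overlapped, with a log2 fold change of -0.02 (95% interval -0.21 to 0.17) whose sign changed when replicate 2 of IR+NC-LV or replicate 1 of IR+PR-LV was left out (range -0.07 to 0.06). The TPM ratio of BIRC3 to its paralog BIRC2 was 0.657 ± 0.0433 and 0.657 ± 0.0356 (SD, n = 3 each).

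TNFAIP2, a target of TNF and NF-κB tied to membrane protrusions (chromosome 14, 103121175 to 103137439, plus strand), had 215, 219 and 182 CPM with NC-LV. It had 210.3, 200.2 and 180.4 CPM with PR-LV, with a log2 fold change of -0.06 (95% interval -0.26 to 0.13). The lowest library of each group was replicate 3, and the groups overlapped. The value was -0.14 without IR+NC-LV replicate 3 and -0.0018 without IR+PR-LV replicate 3.

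The libraries within a group also ordered the genes in a shared way. IR+NC-LV replicate 3, the library with the smallest total count, was the highest of its group for TRAF1, TNFAIP3, NFKB2, RELB and NFKB1, by 0.13 to 0.21 over the group mean on the log2 scale. The same library was the lowest of its group for NFKBIA, BIRC3 and TNFAIP2, at -0.15, -0.11 and -0.17. In IR+PR-LV, replicate 1 was the highest for the same 5 genes and the lowest for BIRC3 and NFKBIZ. Both libraries also differed most from the rest of their group over all genes. Chi-square per degree of freedom was 8.10 and 11.1 for pairs with IR+NC-LV replicate 3, against 3.44 for the remaining pair. It was 11.6 and 13.2 for pairs with IR+PR-LV replicate 1, against 4.25. The shared order is thus not read as particular to these genes. The widest range over the 6 libraries left out in turn was that of RELB, from -0.71 to -0.41. How many of the 10 genes passed also moved with the library left out: 3 without IR+NC-LV replicate 2 (TNFAIP3, TRAF1 and NFKB2) and 2 without IR+NC-LV replicate 3 (TNFAIP3 and TRAF1). None of the 10 genes passed when IR+NC-LV replicate 1 was left out, nor when replicate 2 or 3 of IR+PR-LV was left out, and only TRAF1 passed without IR+PR-LV replicate 1. The share of all genes called in these fits was 0.00638%, 0.179% and 0.102% without IR+NC-LV replicates 1, 2 and 3, and 0.0443%, 0.0448% and 0.00642% without IR+PR-LV replicates 1, 2 and 3. By other settings it was 1.13% with DESeq2 and 0.378% at a threshold of 0.1, each of which called NFKB2 beside TNFAIP3 and TRAF1, 1.19% without the filter on low counts, which called RELB too, 0.063% with at least 10 counts in every library, 0.0797% with listed copies summed and 0.0196% with the replicate number as a block. With 1 library left out, the log2 fold changes stayed between -0.84 and -0.67 for TNFAIP3 and between -1.11 and -0.94 for TRAF1.

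**Figure D4:**
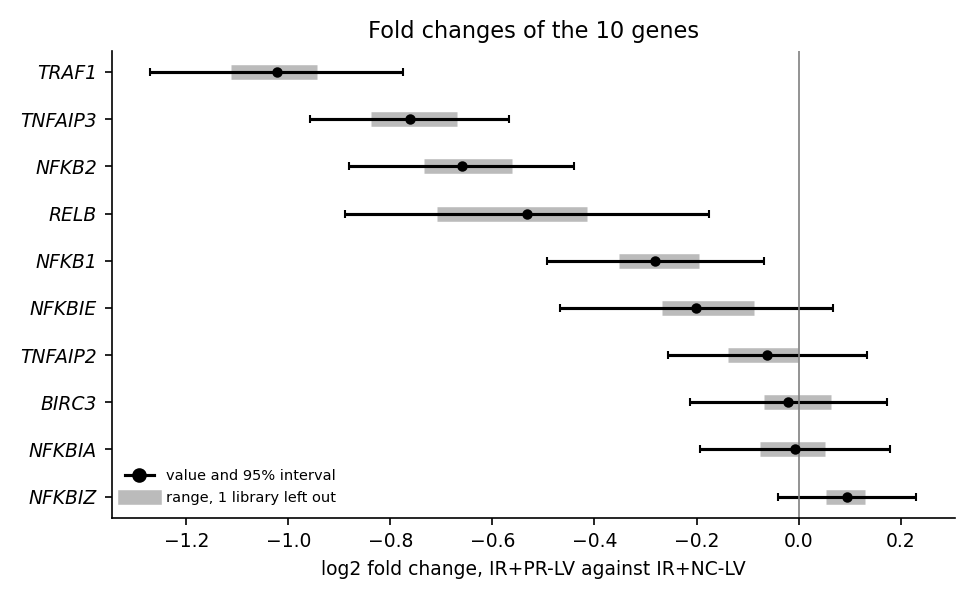
Log2 fold change of IR+PR-LV against IR+NC-LV for the 10 genes; points and bars are edgeR's values with 95% intervals, grey bands the range with 1 library left out at a time. TRAF1 (-1.02) and TNFAIP3 (-0.76), for whose fall in this contrast the list was chosen, lay farthest from 0. The intervals of NFKBIE, TNFAIP2, BIRC3, NFKBIA and NFKBIZ included 0.

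The remaining genes of the pathway were then examined by role, from lists made by known function. Earlier results of these data were known when the lists were made, so the counts below are a description and carry no test. Of 89 such genes, 80 could be tested. None passed the threshold with edgeR's quasi-likelihood test, where 0.0652% of all genes did. With p under 0.05 before adjustment, 8 were lower and 1 was higher, 10% and 1.25% of the 80, where 5.97% and 4.55% of all genes were lower and higher. DESeq2 called 3 of them, IRF1, GADD45B and CYLD, all lower, where it called 1.13% of all genes. The 3 IR+PR-LV libraries lay below all IR+NC-LV libraries for 16 of the 80 genes (20%) and above them for 0, where the shares among all genes were 9.54% and 7.46%. The median log2 fold change of the 80 genes was -0.02.

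Of the 5 other subunits and IκB family genes (median -0.25), 4 had a lower mean in IR+PR-LV. REL, which encodes the subunit c-Rel, had 44.5 ± 7.13 CPM with NC-LV, against 32.6 ± 4.74 CPM with PR-LV (SD, n = 3 each), a log2 difference of -0.45 (standard error 0.13, edgeR adjusted p = 0.324). NFKBID, a nuclear IκB protein, had a log2 fold change of -0.31 and BCL3, a further one, of -0.07, whose sign turned without IR+PR-LV replicate 3 (0.02). RELA, at 0.02, had an adjusted p-value of 0.922 from edgeR. NFKBIB is listed in 2 copies between which reads could be split. With its copies summed, the log2 fold change was -0.24 with a standard error of 0.50. Its copy with the most counts had a log2 fold change of -0.25 with a standard error of 0.52, and 0.78 without IR+NC-LV replicate 3, so that its sign is uncertain.

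Of the 29 kinases and adaptors, 12 had a higher and 17 a lower mean (median -0.01). The IKK subunits CHUK and IKBKB differed by -0.0027 and 0.02 on the log2 scale, and IKBKG by 0.38 with a standard error of 0.33. MAP3K14, the kinase upstream of NFKB2 processing, had 86.1 ± 3.79 CPM and 86.0 ± 11.9 CPM (SD, n = 3 each), a log2 difference of -0.0038. The smallest p-values of this list were those of IKBKE (log2 fold change -0.49, adjusted p = 0.327), IRAK1 (0.26, adjusted p = 0.405), IRAK2 (-0.15, adjusted p = 0.499) and TRAF6 (-0.17, adjusted p = 0.531), all from edgeR. Of these, IRAK1, a kinase of interleukin 1 signalling, was the only one with a higher mean in IR+PR-LV.

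The 10 other brakes had a median of -0.03. CYLD, a deubiquitinase that like TNFAIP3 restrains IKK, had 177 ± 24.1 CPM with NC-LV, against 138 ± 7.89 CPM with PR-LV (SD, n = 3 each), a log2 difference of -0.36 (standard error 0.10, edgeR adjusted p = 0.264). TNIP1, N4BP1 and COMMD1 had log2 fold changes of -0.12, -0.07 and -0.14, with edgeR adjusted p-values from 0.712 to 0.792. TNIP1 encodes a binding partner of A20. With 1 library left out these values ranged from -0.23 to -0.02 for TNIP1, from -0.10 to -0.04 for N4BP1 and from -0.28 to -0.03 for COMMD1, with the value nearest 0 without IR+PR-LV replicate 3 for TNIP1 and without IR+PR-LV replicate 2 for the others.

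Among ligands and receptors, 12 of 20 genes could be tested (median -0.03), and the cytokine genes TNF, LTA, LTB and IL1B were among the 8 that were too low. TNFRSF12A, the receptor of TWEAK and an input of the noncanonical pathway, had 125 ± 2.04 CPM and 105 ± 5.13 CPM (SD, n = 3 each), a log2 difference of -0.25 (standard error 0.06, edgeR adjusted p = 0.216). IL1A, TLR4 and TNFSF14 had log2 fold changes of -0.27, -0.38 and -0.45 at group means below 4 CPM, with edgeR adjusted p-values from 0.602 to 0.690. With 1 library left out they ranged from -0.32 to -0.18 for IL1A, from -0.67 to -0.20 for TLR4 and from -0.72 to -0.21 for TNFSF14. The receptors TNFRSF1A, LTBR and CD40 had 0.10, 0.06 and -0.03.

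Of 24 tested further targets, 13 had a lower and 11 a higher mean (median -0.0098). IRF1, a transcription factor of interferon responses, had 62.4 ± 7.96 CPM with NC-LV, against 41.7 ± 2.35 CPM with PR-LV (SD, n = 3 each), a log2 difference of -0.58 (standard error 0.10, edgeR adjusted p = 0.0799). GADD45B, a stress and survival gene, had 71.3 ± 9.77 CPM and 47.7 ± 4.51 CPM, with the same log2 fold change of -0.58 (adjusted p = 0.107 from edgeR). The chemokines CX3CL1 and CXCL3 had -0.30 and -0.28, the latter -0.35 to -0.16 with 1 library left out (edgeR adjusted p-values 0.307 and 0.406). In contrast, the targets with the most counts did not separate the groups: CXCL8 had 3182 ± 732 CPM and 3882 ± 644 CPM and SOD2, a mitochondrial antioxidant enzyme, 1044 ± 208 CPM and 1116 ± 88.3 CPM (SD, n = 3 each). ICAM1, an adhesion molecule, had a log2 fold change of 0.0099 with a standard error of 0.07.

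**Figure D5:**
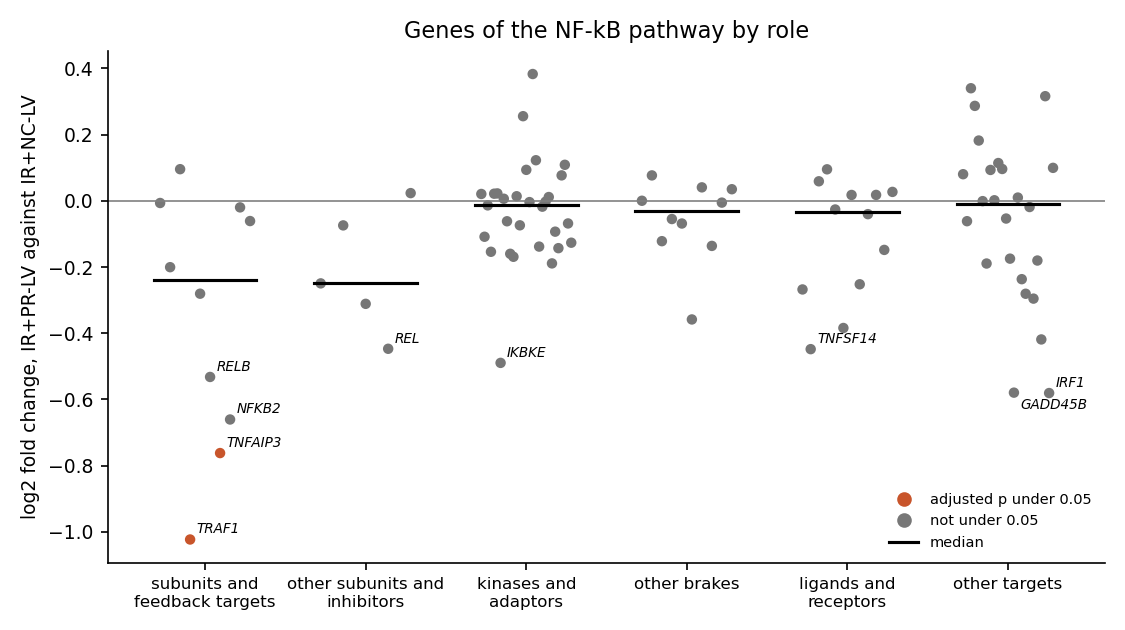
Log2 fold change of each tested gene of the NF-κB pathway, grouped by role; black lines are medians, and colour marks an adjusted p-value under 0.05 in edgeR. Only TNFAIP3 and TRAF1 passed, where 0.0652% of all genes tested did, and the list was chosen for their fall in this contrast. The median of the kinases and adaptors was -0.01.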

How the data were processed

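Poly(A) RNA of irradiated HK-2 cells was sequenced as paired reads, and reads of low quality or with adapters were removed by the authors. For each library the authors deposited the count of reads per gene, together with TPM and FPKM values. Recomputation from the counts and gene lengths gave the deposited TPM and FPKM for 100% of genes, to a tolerance of 1e-06 relative to the value (absolute below 1). The submitters' processing notes name CASAVA, featureCounts 2.0.1, DESeq2 1.16.1 and hg38, and the aligner is not given in the sources used here. The library kit named in the labels does not mark strand. The depth behind each value is the total count, and a count of 0 allows up to 0.105 CPM in the deepest and 0.224 CPM in the shallowest library, for counting error only.

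The counts were compared with edgeR 4.0.16 in R 4.3.3 (filterByExpr, minimum count 10, minimum total 15, TMM factors of 0.981 to 1.04, quasi-likelihood test, no covariates), with Benjamini-Hochberg adjustment over 15340 genes and gene copies and a threshold of 0.05. CPM values are TMM-scaled. Each standard error is the log2 fold change over the root of its F value. Intervals at 95% use the degrees of freedom of the fit. No 2 libraries of a group agreed within sampling noise (chi-square per degree of freedom of 3.44 or more).

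The 10 genes, the pathway lists and the marker lists were chosen with earlier results of these data known. A gene with several listed copies entered by the copy with the most counts. Named pathway genes are those past the threshold, the 4 with the smallest p-values in each list and genes named for their role or level after their values were seen. The alternatives tried were DESeq2 1.42.0, RLE or upper-quartile scaling, other filters on low counts, a block for replicate numbers, leaving out 1 library at a time, summing copies and a threshold of 0.1.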

Additional observations from a re-analysis of the deposited data

How the results depend on the processing

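The number of genes past the threshold was 10 (0.0652% of the genes tested). It was 173 (1.13%) with DESeq2, 342 (1.19%) without the filter on low counts and 58 (0.378%) at a threshold of 0.1. With single libraries left out it was 1 to 28 (0.00638% to 0.179%). Of the 10 NF-κB genes, 2 passed. This was 3 with DESeq2 and at a threshold of 0.1 (with NFKB2), 4 without the filter (TNFAIP3, TRAF1, NFKB2 and RELB) and 0 to 3 with single libraries left out. Of the other pathway genes, 0 passed. This was 3 with DESeq2, 5 without the filter (REL, CYLD, LTB, IRF1 and GADD45B, with LTB from a copy on an alternate scaffold) and 1 at a threshold of 0.1 (IRF1). The cause of these shifts was not tested.

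With the replicate number as a block, 3 genes (0.0196% of the genes tested) and 0 of the 10 NF-κB genes passed. Over all genes, deviations from the group means correlated little between libraries with the same number (-0.0088, 0.05 and 0.07). Not every library correlated best with its own number, and the numbers were not taken as pairs. These correlations over all genes did not test an effect of the number on single genes, such as TNFAIP2. The sign of NFKBIA turned without the filter (0.0029) and that of NFKBIB with the block (0.0016). With single libraries left out, values ranged from -0.075 to 0.051 for NFKBIA, from -0.068 to 0.063 for BIRC3, from -0.64 to 0.78 for NFKBIB and from -0.22 to 0.024 for BCL3. The median of the 10 genes stayed between -0.31 and -0.15 in all fits. Of the 10 genes, only TNFAIP3 and TRAF1 passed with RLE or upper-quartile normalization (0.0652% of all genes tested with each). The same held with at least 10 counts in every library (0.063%) and with summed copies (0.0797%). Both were picked for their fall in these libraries, so that their passing again is not a result.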

Other observations

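The profiles of TNFAIP3 and TRAF1 over the 6 libraries were compared with those of 11119 other genes of at least 5 CPM, by the root mean square distance of centred log2 CPM. The 5 genes nearest to TNFAIP3 were SOCS2, PPARGC1A, NFKB2, FLVCR2 and NUAK2, at distances of 0.05 to 0.08. SOCS2, a brake on cytokine signalling, had 10.3 ± 1.45 CPM with NC-LV, against 6.16 ± 0.109 CPM with PR-LV (SD, n = 3 each). PPARGC1A, a coactivator of mitochondrial biogenesis, had 19.3 ± 3.07 CPM and 11.3 ± 0.688 CPM. NUAK2, a kinase of the AMPK family, had 65.5 ± 11.9 CPM and 37.4 ± 0.954 CPM.

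The 5 genes nearest to TRAF1 were PER1, CD22, GADD45A, ANO9 and TNFAIP3, at distances of 0.09 to 0.16. PER1, a component of the circadian clock, had 27.9 ± 4.41 CPM with NC-LV, against 14.1 ± 1.73 CPM with PR-LV (SD, n = 3 each), and GADD45A, a growth arrest gene, 239 ± 41.1 CPM and 118 ± 2.26 CPM. NFKB2 ranked 14 and RELB 49 by distance to TRAF1, whereas NFKBIA ranked 5378 and BIRC3 5810. These distances are a description over 6 libraries that share the difference between the groups, and they carry no test.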
